A study of Mus musculus with 6 samples.

Results

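Epor encodes the receptor for erythropoietin and Kit the receptor for stem cell factor, and their transcripts were followed through 6 mouse tissue sections imaged by Xenium in situ imaging, a method that detects single transcripts of a fixed gene panel in place and assigns them to segmented cells. The rule names the 2 genes and uses no measured value of them, although they were proposed with earlier results of these data known. They were 2 of the 477 genes of the panel used for 4 sections and 2 of the 5050 genes of the panel used for the other 2 sections, and the panels shared 233 genes.

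All sections were 5 µm thick and came from wild-type mice, 1 section per group, and the labels do not say whether tissue of several animals was pooled. The E14.5 fetal liver was from embryos of embryonic day 14.5, the P8 bone marrow from mice of postnatal day 8, and the NC spleen from adult mice. The PHZ spleen was from mice given phenylhydrazine, a drug that destroys circulating red cells, at 40 mg/kg by intraperitoneal injection with 2 injections per day for 2 days. These 4 sections were imaged in a single run on the smaller panel, with both spleens on a slide and the liver and marrow on another. The E13.5 fetal liver, of embryonic day 13.5, and the bone marrow of mice aged 89 weeks were imaged in a later run on the larger panel with other cell outlines, and the aged marrow was also fixed and embedded differently. Panel, run and segmentation therefore cannot be told apart from stage for these 2 sections, and levels were compared only within a panel.

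Erythropoietin binds a homodimer of Epor on committed erythroid progenitors and erythroblasts, activates the kinase Jak2 and the transcription factors Stat5a and Stat5b, and supports survival and expansion of these cells. Stem cell factor, the product of Kitl, activates the receptor tyrosine kinase Kit on hematopoietic stem and progenitor cells, on early erythroid progenitors and on mast cells, and Kit is lost as erythroblasts mature. Slc4a1, the red cell anion exchanger band 3, accumulates late in the lineage, and C1qa, C1qb and C1qc mark the macrophages at the center of erythroblastic islands.

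The promoters of both genes are shown because of Gata1 and Klf1, erythroid transcription factors. On the smaller panel these had the patterns most like Epor over tissue squares and were not among the 5 genes most like Kit, as given further on. The 250 bases before each gene's start, from RefSeq on GRCm38.p6, are written 5′ to 3′ on the gene's strand, with capitals marking letters of the motifs searched: the GATA letters (GATAA or GATAG after an A or a T), the CACCC box and the GC box CCGCCC, each on either strand. Epor lies at chr9:21963577-21963826 on the minus strand and Kit at chr5:75574737-75574986 on the plus strand.
Epor: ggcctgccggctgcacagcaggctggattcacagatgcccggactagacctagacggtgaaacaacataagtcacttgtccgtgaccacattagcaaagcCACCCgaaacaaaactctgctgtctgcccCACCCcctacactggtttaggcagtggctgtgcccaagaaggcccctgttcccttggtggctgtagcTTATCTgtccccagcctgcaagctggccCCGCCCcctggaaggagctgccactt
Kit: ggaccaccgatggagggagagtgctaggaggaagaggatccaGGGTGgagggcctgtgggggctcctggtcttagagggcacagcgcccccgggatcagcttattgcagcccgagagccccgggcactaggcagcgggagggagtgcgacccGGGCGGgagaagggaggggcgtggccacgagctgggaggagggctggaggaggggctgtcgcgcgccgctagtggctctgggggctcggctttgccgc
The Epor window held CACCC at 150 to 146 and at 121 to 117 bases before the start, CCGCCC at 26 to 21 and GATA letters, on the opposite strand, at 54 to 49. The Kit window held CACCC and CCGCCC on the opposite strand, at 208 to 204 and at 98 to 93, and no GATA letters. Of 27025 promoter windows of this length, 27.1% held GATA letters, 51.3% CACCC, 32.9% CCGCCC and 11.9% both GATA letters and CACCC. The matches describe letters in a window and say nothing about binding.

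Depth ran from a median of 60 transcripts per cell in the aged marrow to 190 in the E13.5 liver, and between 5254 and 140707 cells per section had the 5 detected genes required. The largest count of a negative control probe in any section was 105. Hepatocyte genes (Hpx, Hrg, Gc, Ambp and Serpina10) took 34564.7 of every 1000000 gene transcripts (CPM) in the E14.5 liver and T cell genes 25629.6 in the NC spleen, whereas the single hepatocyte gene on the larger panel had 4 counts in the E13.5 liver, so that section was not identified as liver by it. At most 6 cell identifiers were shared between any pair of sections. With 1 section per group no difference between groups was tested, and all intervals are at 95% and cover counting error only. An outline can also collect transcripts of adjacent cells, and fewer cells of a type and less RNA per cell cannot be told apart in a section's total.

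Epor was highest in the sections richest in late erythroid transcripts, and Kit varied less between sections. On the smaller panel, Epor (ENSMUSG00000006235) was at 14802.5 CPM in the E14.5 liver from 310144 counts, 5159.6 in the P8 marrow from 33203, 8762 in the PHZ spleen from 100152 and 872 in the NC spleen from 9029. It ranked 18th, 43rd, 35th and 166th of the 477 genes in that order. The highest and lowest of the 4 sections were thus the E14.5 liver and the NC spleen, and no neighbors in the order had overlapping counting intervals. Kit (ENSMUSG00000005672) stood at 2778 CPM in the E14.5 liver from 58208 counts, 1392 in the P8 marrow from 8957, 1934 in the NC spleen from 20015 and 1924 in the PHZ spleen from 21997. The intervals of the spleens overlapped for Kit, at 1907 to 1960 CPM in NC and 1899 to 1950 in PHZ.

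On the larger panel, Epor was at 1041 CPM in the E13.5 liver from 1442 counts and at 516 in the 89-week marrow from 6733. Kit was at 141 CPM in the E13.5 liver from 195 counts and at 143 in the aged marrow from 1870. Fetal liver exceeded marrow 2.87-fold (2.84 to 2.90) for Epor and 2.00-fold (1.95 to 2.04) for Kit on the smaller panel, and 2.02-fold (1.90 to 2.14) for Epor on the larger. For Kit on the larger panel the ratio was 0.982 (0.843 to 1.14), but counted per cell, in outlines that also held more transcripts of all genes in the liver, it was 2.79, and that of Epor was then 5.74. The ages, panels and segmentations of these pairs differ, so the 2 ratios of each gene are side by side and not compared.

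**Figure D1:**
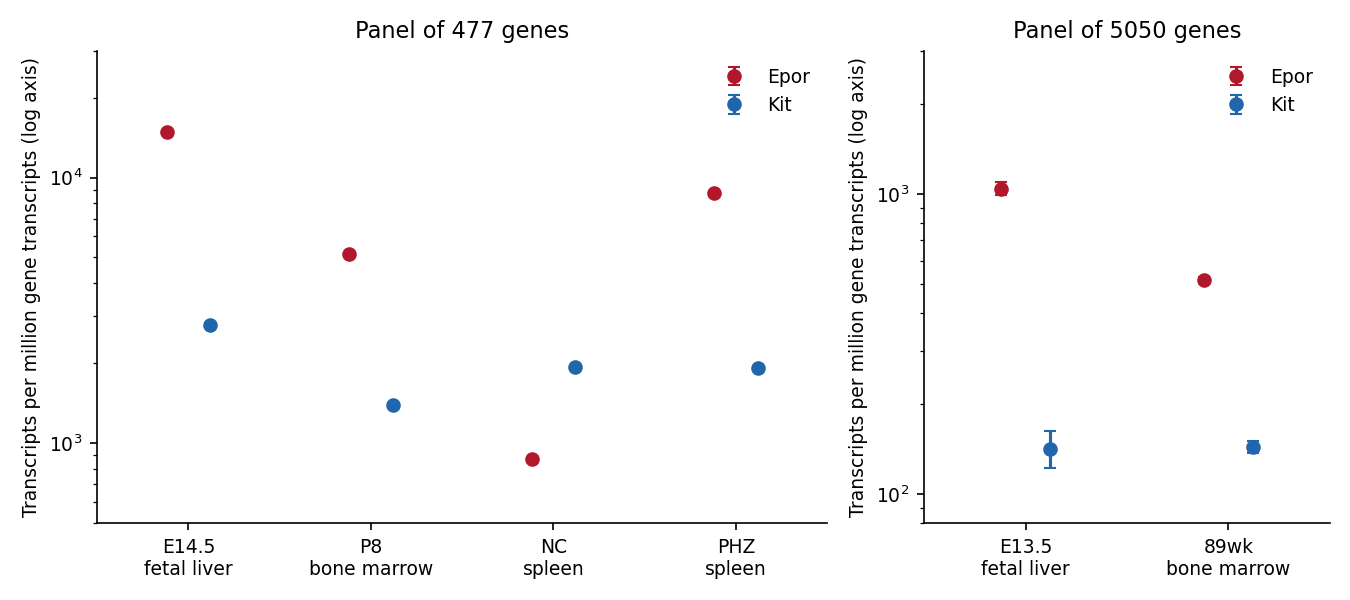
Level of Epor and Kit in each section, in CPM on a log axis, with the 4 sections of the smaller panel and the 2 of the larger panel drawn apart. Points are single sections and bars are exact Poisson intervals, most of them smaller than the point. Epor spans 872 to 14802.5 CPM on the smaller panel and Kit 1392 to 2778.

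As the plot of levels by section shows, Epor spread over a range of levels far wider than that of Kit on the smaller panel. In single cells, at least 1 Epor transcript was seen in 73.3% of cells of the E14.5 liver, 33.2% of the P8 marrow, 4.82% of the NC spleen and 37.9% of the PHZ spleen. For Kit the shares were 20.4%, 10.5%, 11.8% and 12.3%. The most transcripts in a cell were 33 for Epor, in the NC spleen, and 27 for Kit, in the E14.5 liver. On the larger panel 18.8% of E13.5 liver cells and 3.98% of aged marrow cells held Epor, and 3.14% and 1.18% held Kit.

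Cells that should lack both receptors set a floor for these shares. Cells with at least 3 counts of the cartilage genes Col2a1, Acan, Comp and Ucma in the P8 marrow held Epor in 1.27% and Kit in 2.72%, at a median of 103 transcripts against 112 in the section. Cells with at least 3 counts of the T cell genes Cd3d and Cd3e held Epor in 2.34% of cases in the NC spleen and 7.12% in the PHZ spleen, at medians of 92 and 86 transcripts against 84 and 104. Kit was seen in 9.44% and 8.04% of the same T cell gated cells, against 11.8% and 12.3% of the whole spleens, a gap beyond the counting intervals but of less than 2-fold. Kit-positive below means at least 1 Kit count, which in the spleens takes in cells near the level of the gated ones, and spleen values given for Kit-positive cells are to be read beside this floor. At least 3 Kit counts were seen in 1.65% of other NC cells against 0.922% of gated cells and in 2.44% of other PHZ cells against 0.608%. The corresponding shares for at least 3 Epor counts were 0.834% against 0.0883% in NC, 16.4% against 1.04% in PHZ and 9.41% against 0.0858% in the P8 marrow. No such gate was set in the other 3 sections. The gated cells also held fewer Slc4a1 counts per cell than their sections, at 0.162 against 5.76 in the P8 marrow. In the spleens these were 0.163 against 0.348 in NC and 0.726 against 4.96 in PHZ. The floor may therefore be higher for cells among erythroid cells, which was not tested.

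Epor per transcript was higher in each class of cells with more Slc4a1 counts, in every section. Levels here are transcripts per 10000 gene transcripts other than Slc4a1, pooled over the cells of a class. In the E14.5 liver Epor stood at 61.9 in cells with no Slc4a1 count, 116 with 1 to 4, 150 with 5 to 9 and 176 with 10 or more. In the NC spleen the same classes gave 5.13, 16.1, 44.9 and 105, and in the PHZ spleen 14.4, 68.3, 134 and 148. The order of the 4 classes was the same in all 6 sections, including the P8 marrow (5.68, 37.5, 83.0 and 98.3), the E13.5 liver (5.81, 11.0, 13.6 and 16.6) and the aged marrow (2.32, 7.30, 14.9 and 18.6). The highest class exceeded the class with no Slc4a1 2.84-fold (2.75 to 2.95) in the E14.5 liver, 17.3-fold (16.3 to 18.4) in the P8 marrow, 20.5-fold (19.4 to 21.7) in the NC spleen and 10.3-fold (9.99 to 10.6) in the PHZ spleen. Per cell, the spleens were at 46.2 and 20.2 and the aged marrow at 23.8 against 7.99 per transcript. With Epor and Slc4a1 both counted over the nucleus alone, which regroups the cells, the P8 marrow was at 8.67 and the PHZ spleen at 6.54. In the latter the upper classes were level at 198 and 197 per 10000. The class with no Slc4a1 held 2.95% of the cells of the E14.5 liver, 31.3% in the P8 marrow, 75.8% in the aged marrow and 88.7% in the NC spleen. It takes in cells of other lineages, so the step from this class to the next is not one of erythroid maturation alone.

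Kit did not follow Slc4a1. It was highest at 1 to 4 Slc4a1 counts in the E14.5 liver, at 58.3 per 10000, and went down to 15.8 at 10 or more, with 46.6 at none and 45.3 at 5 to 9. The PHZ spleen had the same shape, at 18.5, 33.6, 23.4 and 9.78 over the 4 classes, and the P8 marrow a flatter one, at 7.86, 22.8, 22.4 and 10.8. The NC spleen varied little over the first 3 classes, at 19.4, 20.7 and 18.3, levels to be read beside the 13.3 of its T cell gated cells, and stood at 8.92 in the last. In the E13.5 liver and the aged marrow Kit was highest with no Slc4a1, at 2.25 and 1.74, and the highest class was at 0.3997 and 0.187. The ratio of the highest to the lowest class was 0.338 (0.324 to 0.353) in the E14.5 liver and 1.37 (1.28 to 1.47) in the P8 marrow. With Kit and Slc4a1 both counted over the nucleus alone, which regroups the cells, the P8 ratio turned to 0.375 (0.334 to 0.421). In the spleens it was 0.459 (0.389 to 0.537) and 0.529 (0.506 to 0.552), but per cell, where cells rich in Slc4a1 held more transcripts of all genes, 1.03 and 1.04.

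**Figure D2:**
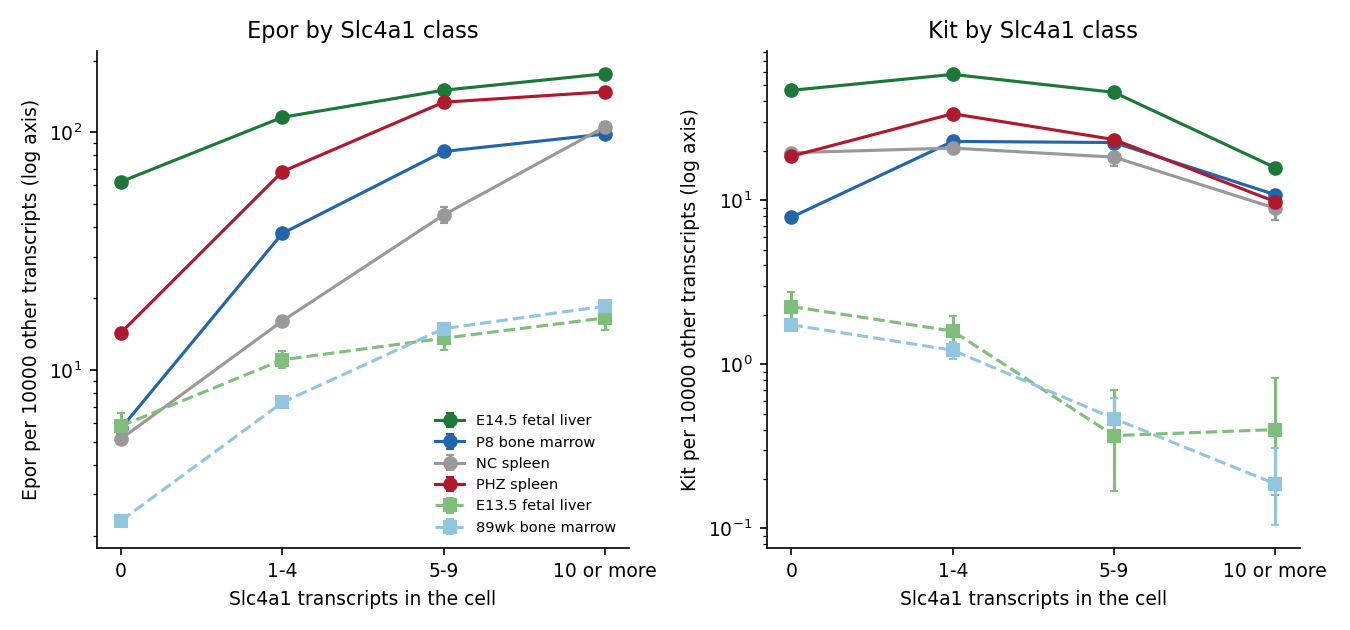
Epor and Kit level by Slc4a1 count class (0, 1 to 4, 5 to 9, 10 or more) in each of the 6 sections, in transcripts per 10000 gene transcripts other than Slc4a1, on a log axis, with exact Poisson intervals. Epor is higher with each class in every section, from 5.13 to 105 in the NC spleen for example, whereas Kit is lowest at 10 or more Slc4a1 counts in all sections but the P8 marrow and the E13.5 liver.

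The plot by Slc4a1 class thus showed Epor and Kit with different courses, and co-detection showed where they met in single cells. Both receptors were seen in 19367 cells of the E14.5 liver, 2564 of the P8 marrow, 1166 of the NC spleen and 6526 of the PHZ spleen, and in 66 and 192 cells of the E13.5 liver and aged marrow. Divided by the number that independent detection would give, these were 1.11, 1.45, 1.90, 1.48, 2.12 and 2.90. With at least 2 counts of each gene, so that single counts were scored as negative, they were 1.43, 2.56, 6.27, 2.34, 4.99 and 11.7. Cells with at least 50 transcripts were also thinned to 50, and cells with fewer were left out. That took away 2217, 5514, 16928, 14650, 388 and 58188 cells, so these ratios rest on fewer and deeper cells. The first 4 ratios were then 1.21, 1.43, 1.82 and 1.32. The last 2 turned to 0.719 and 0.720, where thinning left on average 0.858 and 7.95 cells with both. In those 2 sections the cells with both receptors were also the deepest, with medians of 795.5 and 364.5 transcripts against 164 and 59 in cells with neither.

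Among Slc4a1 classes the ratio was largest in cells with no Slc4a1 count in 5 of the 6 sections, the NC spleen being the exception. In both livers this was not beyond the intervals. The E14.5 liver stood at 1.47 (1.34 to 1.60) with no Slc4a1 and 1.36 (1.32 to 1.40) at 1 to 4. The E13.5 liver stood at 3.07 (2.02 to 4.47) and 2.66 (1.85 to 3.70) in the same classes. In the PHZ spleen the ratio was 3.74 in cells with no Slc4a1, 1.82 at 1 to 4, 1.28 at 5 to 9 and 1.08 at 10 or more, and in the P8 marrow 3.70, 1.61, 1.28 and 1.11. The E14.5 liver stood at 1.47 in the lowest and 1.07 in the highest class, and the NC spleen at 1.90 (1.76 to 2.05) with no Slc4a1, 1.99 (1.78 to 2.21) at 1 to 4, 1.38 at 5 to 9 and 1.09 at 10 or more. With thinning to 50 transcripts the classes without Slc4a1 still stood at 3.57 in the PHZ spleen and 4.68 in the P8 marrow, and the NC spleen at 1.97 with no Slc4a1 and 2.25 at 1 to 4. The same thinning took the class without Slc4a1 from 3.07 to 1.18 in the E13.5 liver and from 6.18 to 1.44 in the aged marrow. Among PHZ spleen cells without Slc4a1, Epor was seen in 24.1% of those with Kit and in 4.53% of those without. The ratio cannot exceed the inverse of the share of cells with Epor. That share was higher with each Slc4a1 class in all 6 sections, from 29.5% to 84.9% in the E14.5 liver. Part of the fall in the ratio over the classes is therefore fixed by the Epor share. Whether the association itself differed between classes was not tested.

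Cells with both receptors had the largest nuclei in all 6 sections. Median nuclear areas in the E14.5 liver were 34.7 µm² for cells with both, 27.7 for Epor only, 25.6 for Kit only and 20.1 for neither. In the PHZ spleen they were 32.9, 27.2, 23.3 and 19.7 µm², and in the P8 marrow 31.2, 25.7, 23.3 and 19.5. A larger outline also holds more transcripts, and its part in the detection of both genes was not tested.

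Most early erythroid genes were at least 2-fold higher in Epor-positive cells of 5 sections, and none in the E13.5 liver. Late ones were so in most cases only in the P8 marrow and the spleens, and megakaryocyte and cell cycle genes were higher in some sections too. Cells with Epor were set against cells without, among genes with at least 100 counts, and a gene was counted when its level per 10000 transcripts (Epor and Kit left out of the total) differed at least 2-fold. Because the receptor itself sorts these cells and 1 section gives no replicates, the counts are descriptions. Of all genes, 2.55% were higher in Epor-positive cells of the E14.5 liver, 9.27% in the P8 marrow, 7.36% in the NC spleen, 6.58% in the PHZ spleen, 0.649% in the E13.5 liver and 5.6% in the aged marrow. The early erythroid list (Klf1, Gata1, Tfrc, Car2 and Hk1) had 3, 5, 4, 5, 0 and 4 of its 5 members among them, with a median fold of 2.30, 2.62, 7.04, 3.21, 1.40 and 2.76. At least 2-fold lower were 36.6%, 28.5%, 31.6%, 79.8%, 14.7% and 26.3% of all genes, and of the granulocyte progenitor genes 3 of 3, 0 of 3, 0 of 3, 1 of 3, 3 of 3 and 4 of 4.

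The late erythroid list, with Slc4a1 and the globin gene Hbb-bt, had 1, 8, 7 and 7 of 9 members past 2-fold on the smaller panel, with Hemgn the 1 in the E14.5 liver, and 0 and 1 of 3 on the larger. Klf1, a transcription factor of the erythroid lineage, stood at 194 per 10000 in Epor-positive and 84.5 in Epor-negative cells of the E14.5 liver. Plek2, a target of erythropoietin signaling in erythroblasts, was 2.18-fold, 3.80-fold, 6.14-fold and 3.91-fold higher in Epor-positive cells of the E14.5 liver, P8 marrow, NC spleen and PHZ spleen. The megakaryocyte list was higher by at least 2-fold in 4 of 4 genes in the P8 marrow and the NC spleen and 5 of 5 in the aged marrow, but in 0 of 4 in the PHZ spleen, where Pf4 and Ppbp were lower. Of the cell cycle list, 3 of 4 genes were higher by that much in the P8 marrow and the NC spleen, 4 of 4 in the PHZ spleen and 2 of 4 in the aged marrow, and 0 of 4 in both livers.

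Kit-positive cells were instead marked by granulocyte progenitor genes. The shares of all genes at least 2-fold higher in Kit-positive cells were 5.11%, 4.19%, 3.9%, 5.04%, 2.13% and 5.37% in the same order of sections, and 0.638%, 6.84%, 1.73%, 9.65%, 10.7% and 15% were at least 2-fold lower. Mpo, Elane and Ctsg, granule proteins of neutrophil precursors, passed 2-fold as 3 of 3 in each section of the smaller panel, with median folds of 3.59, 3.88, 2.87 and 2.22, and in 2 of 3 and 4 of 4 list members on the larger. In spleen cells with at least 3 Kit counts against none, 3 of 3 passed in NC with a median of 7.06, and in PHZ only Ctsg did, at 4.24 (3.82 to 4.70), with Mpo at 1.84 and Elane at 1.93. Of all genes, 9.35% were higher and 20.2% lower by 2-fold at this limit in NC, and 5.99% and 30.6% in PHZ. Within the E14.5 liver this belonged to cells with Kit and no Epor, where Mpo was at 201 per 10000 and Cd34, a progenitor surface protein, at 43.5, against 51.6 and 8.01 in cells with both receptors and 35.5 and 8.47 in cells with neither. Klf1 ran the other way, at 65.8 in cells with Kit only and 226 in cells with both. Kit-positive cells with and without Epor thus differed in these genes. Of the early erythroid list, only Klf1 and Gata1 in the NC spleen passed 2-fold in Kit-positive cells, and 0 of 5 did in the other 5 sections. Plek2 was lower in Kit-positive than in Kit-negative cells, 0.661-fold in the E14.5 liver and 0.772-fold in the PHZ spleen.

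A mast cell gene and endothelial genes were also higher in some Kit-positive cells. Cpa3, a mast cell and basophil protease, was 4.01-fold higher in Kit-positive cells of the E14.5 liver and 2.79-fold in the P8 marrow. It was at 1.96 in the NC spleen and 1.54 in the PHZ spleen, and in the aged marrow 0 of 3 mast cell and basophil genes passed 2-fold, at a median of 1.51. The 633 liver cells with at least 3 Cpa3 counts held Kit at 102 per 10000 against 26.7 in cells without Cpa3, and Epor at 64.4 against 149. In the PHZ spleen 4 of 5 endothelial genes passed 2-fold in Kit-positive cells, Kdr, Tie1, Plvap and Eng, with a list median of 2.54, against 0 of 5 in the NC spleen and a median of 1.38. Of the 11621 Kit-positive cells of the PHZ spleen only 2245 held at least 3 counts, above the level of the T cell gate. At that stricter limit, added after these values were seen, the same 4 genes passed in the PHZ spleen with a list median of 2.82, and 0 of 5 in the NC spleen with a median of 0.997. Eng alone passed 2-fold in Kit-positive cells of the P8 and the aged marrow, and it was lower by that much in the E13.5 liver. Kit-only cells of the PHZ spleen held Kdr at 28.5 per 10000 and Tie1 at 42.3, against 6.54 and 8.79 in cells with both receptors.

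On the smaller panel, cells with at least 10 Kit counts held more Epor and Klf1 than cells without Kit. The 37 NC spleen cells with at least 10 Kit counts held Epor at 231 and Klf1 at 199 per 10000, against 7.18 and 4.79 in cells without Kit. The 92 such cells of the PHZ spleen held Epor at 249 against 80.2 and Klf1 at 214 against 107. The 605 of the E14.5 liver held Epor at 320 against 136 and Klf1 at 291 against 162, and the 25 of the P8 marrow 242 against 48.3 and 195 against 57.2. No cell of the larger panel's sections had as many, and the 3 cells with 3 to 9 Kit counts in the E13.5 liver held Epor at 9.99 against 10.3 without Kit, and the 26 of the aged marrow at 11.8 against 5.12. Mpo was at 1.02 in the 37 NC cells and 14.1 in cells with 3 to 9 Kit counts. From the side of Epor, the 4507 liver cells with at least 10 Epor counts held Kit at 89.1 against 18.1 in cells without Epor, and had a median nucleus of 47.0 µm² against 20.7. Kit in cells with as many Epor counts was at 57.8 against 9.65 in the P8 marrow, 78.9 against 18.1 in the NC spleen and 67.6 against 13.3 in the PHZ spleen. High levels of each receptor therefore went with high levels of the other in these 4 sections, whereas Slc4a1 in the liver cells richest in Epor was 462 per 10000, below the 699.5 of cells with 3 to 9 Epor counts.

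Over squares of 50 µm, the genes with the pattern most like Epor among 194 genes were Gata1, Klf1, Prx, Aqp1 and Rhd, with mean Pearson r of 0.847, 0.844, 0.821, 0.779 and 0.752 over the 4 sections of the smaller panel. Gata1 and Klf1 are transcription factors of the erythroid lineage, Aqp1 a water channel and Rhd a blood group protein of red cells. For Kit the nearest genes reached much less: Stmn1 at 0.392, Selenbp1 at 0.328, Tmem147 at 0.320, Hk1 at 0.307 and Alox5ap at 0.294. These means hide differences between sections, since in the NC spleen the first 4 were at 0.0986, 0.0141, -0.0416 and -0.102 and Alox5ap was at 0.474. Epor and Kit correlated at 0.130, 0.468, 0.124 and 0.141 over 2615, 1340, 1752 and 2597 squares, and at 0.115 and 0.0185 on the larger panel. There Klf1 ranked 3rd among the genes most like Epor in both sections, and Gata1 was not among the first 10. The squares of a section share its library, depth and anatomy, and the values are descriptions.

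On the smaller panel, cells with at least 3 counts of a receptor had more such cells around them than other cells did. Within 20 µm of such an Epor cell in the NC spleen, 8.41% of neighbors were Epor cells too, 17.2 times the 0.489% around other cells, and in the PHZ spleen 31.6% against 11.6%, a ratio of 2.72. In the E14.5 liver, where 38.7% of all cells passed, the ratio was 1.15. For Kit the ratios were 1.52, 2.00, 2.57 and 2.62 in the E14.5 liver, P8 marrow, NC spleen and PHZ spleen, yet 20.1%, 50.3%, 45.2% and 48.6% of these Kit cells had no other within 20 µm. On the larger panel Epor stood at 1.90 and 3.59, and none of the 3 Kit cells of the E13.5 liver and 26 of the aged marrow had another nearby. The part of transcripts assigned to a neighboring outline was not tested.

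Whether macrophages carry Epor was asked in cells with C1q transcripts. Cells whose C1qa, C1qb and C1qc counts summed to at least 3, called C1q-positive, were compared with cells at a sum of 0, per 10000 transcripts other than C1q and Slc4a1. In the NC spleen Epor was at 16.2 in 38973 C1q-positive cells and at 1.82 in 42738 cells without C1q, a ratio of 8.90 (8.18 to 9.70). In the E14.5 liver, P8 marrow, PHZ spleen, E13.5 liver and aged marrow the ratios were 0.817, 1.31, 0.724, 0.725 and 0.796. At 10 or more C1q counts the P8 ratio turned to 0.897 (0.817 to 0.982), and those of the E14.5 liver, PHZ spleen and E13.5 liver went to 0.544, 0.430 and 0.312. With no Slc4a1 the E14.5 and E13.5 livers were at 0.518 and 0.338, and the aged marrow was at 1.02 (0.816 to 1.25). The NC spleen had the largest of the 6 ratios, and there the C1q-positive cells also held 0.738 Slc4a1 counts per cell against 0.0670. C1q-positive cells held 12.1 Slc4a1 counts against 10.9 in the E14.5 liver, 8.59 against 4.70 in the P8 marrow, 4.68 against 4.83 in the PHZ spleen, 4.505 against 3.30 in the E13.5 liver and 1.49 against 0.864 in the aged marrow, so the class is not one of macrophage transcripts alone. Among cells with at least 10 Slc4a1 counts, the ratio was 0.859 in the E14.5 liver, 0.989 in the P8 marrow, 0.893 in the PHZ spleen, 1.12 (0.736 to 1.64) in the E13.5 liver and 0.766 (0.591 to 0.980) in the aged marrow. In the NC spleen it was 0.955 (0.622 to 1.55), from only 16 C1q-free cells with 21 Epor counts, beside 6.42 with no Slc4a1, 3.91 (3.06 to 5.08) at 1 to 4 and 1.33 (0.910 to 2.02) at 5 to 9.

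A stricter class, added after these values were seen, kept only cells with no count of Klf1, Gata1, Slc4a1, Rhd and Hemgn. In the NC spleen, Epor then stood at 5.90 (5.63 to 6.18) per 10000 in 28207 C1q-positive cells and 1.16 (1.04 to 1.28) in 39760 cells without C1q, a ratio of 5.11 (4.55 to 5.75). Cells with at least 10 C1q counts were at 9.52, and T cell gated cells without C1q or these erythroid genes at 1.05. At least 1 Epor transcript was seen in 5.69% of the C1q-positive cells, at a median of 103 transcripts, against 0.850% at 69 without C1q and 0.904% at 80 in the T cell gate. With C1q and Epor both counted over the nucleus alone, which regroups the cells, the levels were 7.91 in 14167 cells and 1.30 in 53475. The Epor level of this class was therefore higher with more C1q counts and exceeded that of the gated cells.

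The P8 marrow gave the same order, at 5.43 in 759 C1q-positive cells, 11.0 at 10 or more C1q counts, 1.97 without C1q and 0.483 in cartilage gated cells, with a ratio of 2.76 (2.08 to 3.61). Median depth was 159 transcripts in the C1q-positive and 85 in the C1q-free cells. For the E14.5 liver only 185 C1q-positive cells were left, at 11.1 against 5.57, a ratio of 1.99 (1.22 to 3.15) from 28 and 62 counts. The PHZ spleen differed from the NC spleen, at 3.28 in 10989 C1q-positive cells, 3.21 in 9020 cells without C1q and 2.03 in T cell gated cells, with a ratio of 1.02 (0.848 to 1.23). Its C1q-positive cells held a median of 96 transcripts and its C1q-free cells 49, so a count of 0 for the erythroid genes was a weaker filter in the latter. On the larger panel the ratios were 0.583 (0.155 to 1.55) in the E13.5 liver and 1.12 (0.862 to 1.44) in the aged marrow, where 3 of the 5 erythroid genes were measured. For Kit in the same cells the ratios were 1.07 in the NC spleen, 1.40 in the P8 marrow, 0.696 in the PHZ spleen and 0.635 in the E14.5 liver.

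Other transcripts differed in direction in these NC spleen cells, namely the erythroid genes Plek2 and Hbb-bt and, picked for their pattern like Epor over squares of these sections, Prx and Aqp1. Plek2 was lower in the C1q-positive than in the C1q-free cells, at 0.338 against 0.703 per 10000, Prx was higher at 4.34 against 2.97, Aqp1 was level at 7.57 against 7.51, and Hbb-bt was higher at 49.4 against 18.5. Erythroid transcripts were thus still present in these cells, Hbb-bt above all, and their part in the Epor level was not tested. In the PHZ spleen Plek2, Prx, Aqp1 and Hbb-bt were all lower in the C1q-positive cells, with Hbb-bt at 46.7 against 69.6 and Plek2 at 1.36 against 3.59. In the P8 marrow Hbb-bt was higher in them, at 58.7 against 33.1, and Plek2 lower, at 0.151 against 0.867. The part of these transcripts in the Epor ratios of these sections was not tested either. In the wider class of cells with no Slc4a1, other genes allowed, Epor amounted to 202 per 100 Klf1 transcripts in C1q-positive cells and 132 in C1q-free cells of the NC spleen, to 153 and 79.5 in the P8 marrow, to 85.2 and 62.1 in the PHZ spleen, to 63.9 and 45.5 in the aged marrow, and to 73.9 (64.3 to 84.4) and 83.1 (79.9 to 86.5) in the E14.5 liver. Set against Gata1 instead, Epor was higher in the C1q-positive cells of all 5, at 208 and 92.2, 203 and 117, 107 and 75.4, 219 and 140, and 164 and 129 per 100 Gata1 transcripts in the same order. The E13.5 liver had 5 Epor counts in such cells.

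**Figure D3:**
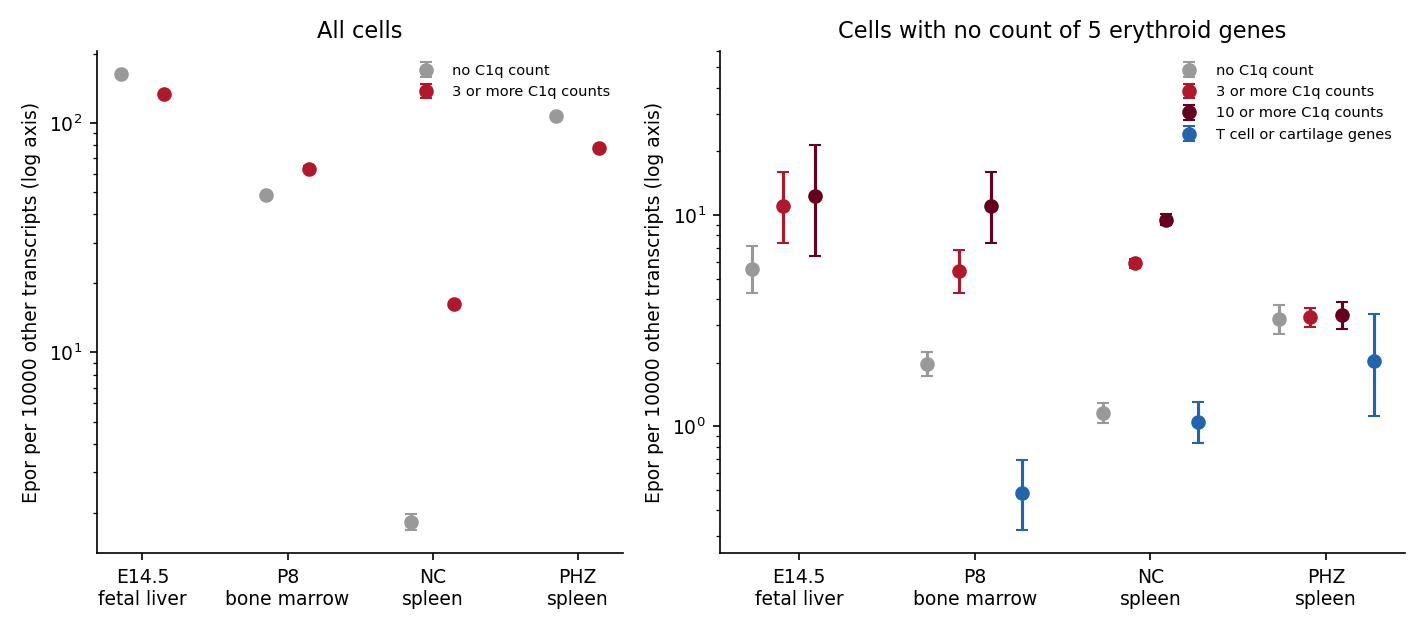
Epor transcripts per 10000 gene transcripts by C1q count class, with exact Poisson intervals, in all cells (left) and in cells with no count of 5 erythroid genes (right), where the right side also shows cells with at least 10 C1q counts and the T cell or cartilage gated cells. In the NC spleen the right side runs from 1.16 without C1q to 9.52 at 10 or more C1q counts, while in the PHZ spleen it runs from 3.21 to 3.35.

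The plot by C1q class separated the spleens, and in the spleens C1q-positive cells with and without Epor differed in other genes. Of the NC spleen cells with C1q and none of these erythroid genes, 1606 held Epor and 26601 did not. In the Epor-positive ones the scavenger receptors Mrc1 and Cd163 were higher by 1.84-fold (1.78 to 1.90) and 1.74-fold (1.62 to 1.87), Spic, a transcription factor of red pulp macrophages, by 1.66-fold, Cd5l by 1.48-fold, the iron exporter Slc40a1 by 1.45-fold and Vcam1 by 1.39-fold. Timd4 was the lowest of the 12 genes of the macrophage list at 1.03 (0.959 to 1.10), the other 11 had intervals above 1, and the list median was 1.40. Kit was at 0.766 (0.681 to 0.858). The median of the 365 genes with at least 100 counts was 0.841, 1.1% of them were higher by at least 2-fold, none of them in this list, and 8.49% were lower. In the PHZ spleen, where 366 such cells held Epor and 10623 did not, Cd5l was at 1.84 and Timd4 at 1.19, and all 12 genes of the macrophage list lay above 1, 10 with intervals above 1, at a median of 1.18 and the lowest at 1.06. Of all 301 genes, with a median of 0.955, 2.33% were at least 2-fold higher and 6.31% lower there. How many of all genes had intervals above 1 was not counted in either spleen, so those tallies have no background. Only 26 such cells of the E14.5 liver and 60 of the P8 marrow held Epor. Most genes of the list lay above 1 there too, though few had intervals above 1, and no interval lay below 1. Mrc1 was at 1.47 (1.15 to 1.85) and 1.53 (1.31 to 1.78). Below 1 in the liver were Marco at 0.641 (0.248 to 1.40), Spic at 0.880 (0.451 to 1.58) and Cd163 with 0 and 2 counts. Cd5l was the one below 1 in the marrow, at 0.866 (0.0201 to 5.96) from 1 and 11 counts.

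Epor in C1q-free cells was lower with distance from the nearest C1q-positive cell in the P8 marrow, from 77.4 per 10000 within 10 µm to 59.6 at 10 to 20 µm, 30.1 at 20 to 40 µm and 3.51 beyond. Slc4a1 went from 641 to 39.1 over the same distances, and Kit from 17.7 to 3.63, in a section that also held cartilage. In the NC spleen Epor went from 2.56 within 10 µm to 0.830 (0.600 to 1.12) at 20 to 40 µm and stood at 1.73 (1.01 to 2.77) beyond, from 17 counts, and Kit went from 21.5 to 10.4 beyond 40 µm. In the PHZ spleen Epor went from 105 to 67.0, whereas Kit went from 17.0 to 29.0 and Slc4a1 from 485 to 852, although only 284 cells lay beyond 40 µm. In the E14.5 liver Epor lay between 151 and 155 within 40 µm and at 104 (98.6 to 109) in the 802 cells beyond, and in the aged marrow it lay between 5.02 and 5.16 over all distances.

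Epor transcripts lay over the nucleus more than those of most genes. Of Epor transcripts inside cells, 73.4% were over the nucleus in the E14.5 liver, 73.3% in the P8 marrow, 62.5% in the NC spleen and 71.5% in the PHZ spleen, against medians of 54.9%, 48.1%, 58.9% and 50.9% over genes with at least 1000 transcripts. Only 20 of 292, 3 of 253, 107 of 293 and 17 of 273 genes were higher. Kit was nearer the middle, at 63.9%, 57.1%, 60.9% and 58.7%, with 61, 73, 126 and 79 genes higher. The NC spleen, the lowest of the 4 for Epor, was also the section with 49.6% of its Epor in cells without Slc4a1.

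**Figure D4:**
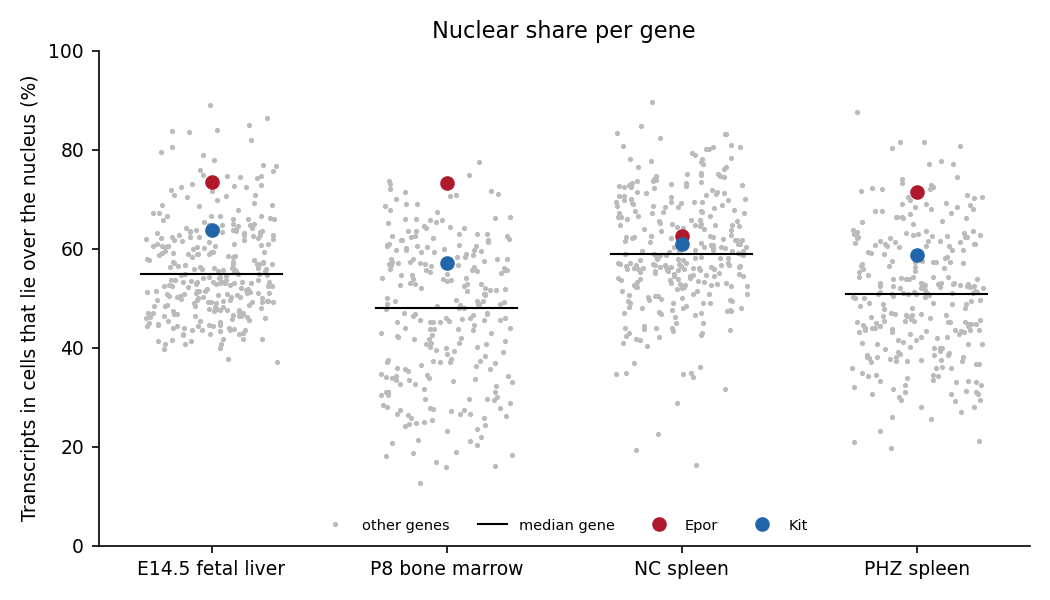
Share of transcripts over the nucleus for genes with at least 1000 transcripts in the 4 sections of the smaller panel, in percent, with small points for genes, a line at the median gene and marked points for Epor and Kit. Epor lies at 71.5% to 73.4% in 3 sections and at 62.5% in the NC spleen, and Kit at 57.1% to 63.9%.

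The nuclear share of Epor depended on the cells it was in, as the plot of nuclear shares cannot show. In the E14.5 liver it went from 59.4% in cells without Slc4a1 to 64.1%, 69.8% and 76.4% over the next classes, in the NC spleen from 56.8% to 79.6% between the lowest and highest class, in the PHZ spleen from 59.9% to 74.8% and in the P8 marrow from 54.2% to 77.7%. All genes together went from 49.4% to 58.7% in the liver, less than Epor, and from 30.5% to 62.1% in the P8 marrow, more than Epor, where the median nucleus covered 18.4% of the outline in the lowest and 63.1% in the highest class. In the highest class of the NC spleen, 79.6% of Epor stood against 59.3% of all transcripts. Kit had another order, at 61.1%, 64.1%, 67.7% and 59.9% over the classes in the E14.5 liver. Cells on this panel were nuclei expanded outward, so the remainder is not a measure of cytoplasm alone.

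After phenylhydrazine, Epor in the spleen was higher and Kit was level per transcript. Epor stood at 872 CPM in NC and 8762 in PHZ, a ratio of 10.05 (9.83 to 10.3), the 16th highest of 472 genes with at least 100 counts. Kit was at 1934 and 1924 CPM, a ratio of 0.995 (0.976 to 1.01), ranking 128th, but scaled by the median of ratios over genes it was 1.47 and Epor 14.8. Of all genes, 12.9% were at least 2-fold higher in the PHZ section and 27.5% at least 2-fold lower, with a median ratio of 0.731. Counted at the same 2-fold limit, the early erythroid list was higher in 5 of 5 genes with a median of 8.58, Klf1 17.9-fold and Gata1 16.3-fold among them, and the late erythroid list in 8 of 9 with a median of 5.46. Granulocyte progenitor genes were higher in 3 of 3 and cell cycle genes in 4 of 4. Of the 8 genes of the stem and early progenitor list the panel held Cd34, Ly6a and Slamf1, lower in 3 of 3 with a median of 0.394. Their NC counts were 5140, 222490 and 34790, beside 20015 for Kit. None of them was at least 2-fold higher in Kit-positive cells of either spleen, and which cells held them was not tested. T cell genes were lower in 4 of 4 with a median of 0.154. C1q macrophage genes were lower in 5 of 12 with a median of 0.572, and endothelial genes in 3 of 5 with a median of 0.431. Of the 6 pathway genes on the panel, Epor and Kit included, 5 were higher, Plek2 most at 75.4-fold and Tfrc, the transferrin receptor, at 3.19-fold, and Kit was the exception. Klf1, Gata1 and Tfrc are also the early erythroid genes counted above and Epor is the gene followed here, so of the 5 only Plek2 was not yet counted.

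The spleens also differed in how their cells fell into Slc4a1 classes. Cells with no Slc4a1 count were 88.7% of the NC and 35.1% of the PHZ section, and cells with 10 or more 0.786% and 21.3%. In NC 49.6% of Epor transcripts lay in cells without Slc4a1, and in PHZ 4.22% did, while 51.6% lay in cells with 10 or more. Within classes Epor was still higher in PHZ, 2.80-fold with no Slc4a1, 4.25-fold at 1 to 4, 2.98-fold at 5 to 9 and 1.40-fold (1.34 to 1.47) at 10 or more. Kit within classes was at 0.952, 1.62, 1.28 and 1.10 (0.933 to 1.30), and in PHZ 24.7% of Kit transcripts lay in cells without Slc4a1 against 84.8% in NC. The Kit transcripts of the spleens were thus spread over different classes at a like total. T cell gated cells were at 13.3 Kit per 10000 in NC and 11.0 in PHZ, beside 19.3 and 19.2 in the whole sections, and at 2.86 and 11.8 for Epor. The Epor floor set by gated cells was thus also higher in PHZ. Its part in the higher Epor within Slc4a1 classes was not tested.

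**Figure D5:**
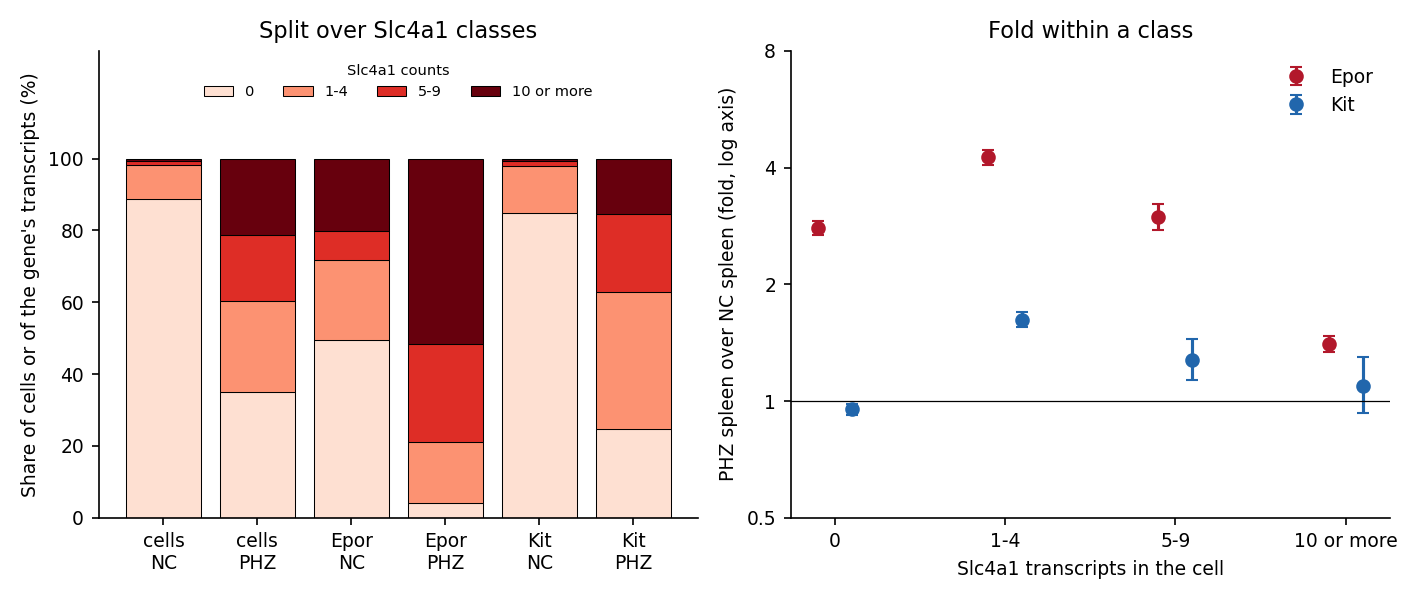
Share of cells, of Epor transcripts and of Kit transcripts in each Slc4a1 count class in the NC and PHZ spleens, in percent, and the ratio of PHZ to NC within each class on a log axis with exact conditional binomial intervals. Epor is above 1 in every class, from 1.40 to 4.25, and Kit runs from 0.952 to 1.62.

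The larger panel also held the ligands and the signaling genes. Epo, made mainly by liver and kidney, had 7 counts in the E13.5 liver and 32 in the aged marrow, against largest negative control probe counts of 1 and 18. Kitl was at 188 CPM from 260 counts in the E13.5 liver and at 297 from 3878 in the aged marrow. Jak2 stood at 402 and 483 CPM, Stat5a at 129 and 128 and Stat5b at 223 and 263, so these signaling genes were detected in both sections at levels between 128 and 483 CPM. In Epor-positive cells of the aged marrow, 4 of 33 pathway genes were at least 2-fold higher and 10 lower, against 5.6% and 26.3% of all genes, and in those of the E13.5 liver 0 of 25 were higher and 0 lower, against 0.649% and 14.7%. The 4 in the aged marrow were Klf1 at 3.05-fold, Gata1 at 2.87-fold, Tfrc at 2.76-fold and the transcription factor Tal1 at 2.64-fold. Jak2 was at 1.53 (1.43 to 1.64) and the negative regulator Ptpn6 at 0.323 (0.275 to 0.378).

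In Kit-positive cells of both sections Myb and Stat5a were higher. In the E13.5 liver 3 of 25 pathway genes were at least 2-fold higher, Myb at 3.67 (2.79 to 4.78), Vav1 at 2.53 and Stat5a at 2.25, and 1 was lower, the survival gene Bcl2l1 at 0.424 (0.254 to 0.668), against 2.13% higher and 10.7% lower of all genes. In the aged marrow 3 of 33 were higher and 3 lower, against 5.37% and 15% of all genes. There Myb was at 2.86 (2.67 to 3.05), Gata2 at 2.35 (1.92 to 2.85) and Stat5a at 2.19 (1.78 to 2.67), whereas Vav1 was at 0.980. The 3 lower were Bcl2l1 at 0.399 (0.324 to 0.487) and Socs1 and Mitf, which had no count in Kit-positive cells, with intervals of the ratio that reach 0.657 and 0.766. Myb and Gata2 are transcription factors of hematopoietic progenitors. Kitl itself did not differ by 2-fold with either receptor in either section, at 0.970 and 0.882 with Kit and 0.769 and 0.542 with Epor.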

How the data were processed

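The deposited tables hold transcript counts per gene and cell, and per transcript a quality score, a cell and whether it lies over the nucleus. Per the file headers, the authors' instrument software made them, Xenium Onboard Analysis 1.7.1.0 for the smaller panel and 3.1.0.4 for the larger. The study's methods name Space Ranger, and the genome build of the files is not given in the sources used here.

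Counts were summed over cells with at least 5 detected genes and divided by gene transcripts, with exact Poisson intervals for counts, exact binomial intervals for shares and exact conditional binomial intervals for ratios (Python 3.11.15, numpy 2.4.6, pandas 2.3.3, scipy 1.17.1, matplotlib 3.10.9). Nuclear shares used transcripts with a quality score of at least 20 in the smaller panel's sections. Genes with at least 100 counts and a 2-fold difference were counted. The ratio and interval functions were tested on simulated data. Named genes were Epor, Kit, Slc4a1, the C1q genes, marker and pathway lists and, per receptor, the 5 genes most like it over squares of 50 µm. Members and lists were chosen with earlier results of these data known, and some erythroid marker genes are not reported here and were left out of their lists.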

Additional observations from a re-analysis of the deposited data

Results flagged for a closer look

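Epor in cells with at least 3 C1q counts against cells with none went opposite ways in the spleens, at 8.90 in NC and 0.724 in PHZ, and in cells with none of 5 erythroid genes at 5.11 and 1.02 (0.848 to 1.23). In the cells without these genes Hbb-bt also went opposite ways. It was at 49.4 per 10000 with C1q against 18.5 without in NC, and at 46.7 against 69.6 in PHZ. Its part in the Epor ratios was not tested. Kit in cells with at least 10 Slc4a1 counts against cells with none also went opposite ways. The ratio was 0.338 in the E14.5 liver and 1.37 in the P8 marrow. With Kit and Slc4a1 both counted over the nucleus alone, which regroups the cells, both were below 1, at 0.163 and 0.375. With 1 section per group, neither difference was tested.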

How the results depend on the processing

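Of 104 recomputed values, 21 stayed within the counting interval, 73 moved outside it in the same direction or without one, and 10 went to the other side of 1, of which 5 had intervals that hold 1, namely Kit per cell over Slc4a1 classes in both spleens and the C1q ratio with no erythroid gene in the PHZ spleen and aged marrow and with no Slc4a1 in the aged marrow. The cause was not tested. Per cell instead of per transcript, fetal liver over marrow was 4.02 (Epor) and 2.80 (Kit) on the smaller panel and 5.74 and 2.79 on the larger. The highest over the lowest Slc4a1 class was then 3.64, 21.4, 46.2, 20.2, 3.65 and 23.8 for Epor in the E14.5 liver, P8 marrow, NC spleen, PHZ spleen, E13.5 liver and aged marrow. For Kit it was 0.433 in the E14.5 liver, 1.69 in the P8 marrow and 0.320 in the aged marrow, and in the NC spleen (1.03) and PHZ spleen (1.04) it had no direction. PHZ over NC per cell was 12.7 for Epor and 1.26 for Kit. Over the genes of both panels, liver over marrow was 3.21 and 2.23, then 2.67 and 1.30. Without Hbb-bt, Epor was 2.93 in liver over marrow, 3.05, 19.1, 22.0 and 11.0 over Slc4a1 classes and 10.4 in PHZ over NC, and Kit was 0.363, 1.51 and 0.565 over classes in the E14.5 liver, P8 marrow and PHZ spleen and 1.03 in PHZ over NC. Scaled by the median of ratios, PHZ over NC was 14.8 and 1.47. Co-detection at 2 counts or more was 1.43, 2.56, 6.27, 2.34, 4.99 and 11.7, over nuclei 1.18, 1.63, 2.34 and 1.75, and after thinning 1.21 in the E14.5 liver and 1.32 in the PHZ spleen, turning to 0.719 and 0.720 on the larger panel. Over nuclei, with cells also classed by nuclear Slc4a1 or C1q counts, the Slc4a1 class ratio was 2.44, 8.67, 28.4 and 6.54 for Epor. For Kit it was 0.163, 0.375 (turned), 0.252 and 0.235, and the C1q ratio of Epor was 0.737, 1.17, 6.80 and 0.612. At 10 or more C1q counts that ratio was 0.544, 0.897 (turned), 11.8 and 0.430, and 0.312 in the E13.5 liver. With no Slc4a1 it was 0.518, 1.54 and 6.42 in the E14.5 liver, P8 marrow and NC spleen, 0.338 in the E13.5 liver and 1.02 in the aged marrow. With no erythroid gene, chosen after seeing the data, it turned in the E14.5 liver (1.99), was 1.02 and 1.12 in the PHZ spleen and aged marrow, and was 2.76 and 5.11 in the P8 marrow and NC spleen. At quality score 30 the nuclear share was 74.4% and 72.7% for Epor and 64.9% and 60.4% for Kit in the E14.5 liver and PHZ spleen. Over all transcripts of a section it was 72.9%, 72.2% and 71.0% for Epor in the E14.5 liver, P8 marrow and PHZ spleen and 63.2% and 55.8% for Kit in the first 2. No paired analysis was possible because each group had 1 section.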
